A study of Mus musculus with 6 samples.

Results

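The genes described here encode subunits of RNA polymerases I, II and III and the general transcription factors of the TFII and TFIII families. They were found by symbol, as protein-coding genes of the deposited table whose symbol begins with Polr1, Polr2 or Polr3 and a letter, or with Gtf2 or Gtf3. The rule found 50 genes among 24354 in the table, of which 15571 are protein-coding. The annotation holds 51 such genes, and the remaining gene, Gtf2a1l, was not analysed here. The family was selected on FPKM differences between control and AlCl3 libraries that were already known, so the values of this contrast are a description and support nothing beyond themselves.

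Polymerase I transcribes the large ribosomal RNA precursor, polymerase II transcribes messenger RNA and most small nuclear RNA, and polymerase III transcribes transfer RNA, 5S ribosomal RNA and other short RNAs. Each enzyme has its own pair of large subunits that form the catalytic centre, and the enzymes share a set of small subunits. TFIIA, TFIIB, TFIIE, TFIIF and TFIIH assemble with polymerase II at promoters, whereas TFIIIA and TFIIIC recognise the internal promoters of polymerase III genes.

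RNA-seq libraries came from TM4, an established mouse Sertoli cell line, grown in medium with fetal bovine serum. The 3 AlCl3 libraries came from cells kept for 30 days in 100 nM aluminium chloride (AlCl3), and the 3 control libraries carry the same day in their titles. The treatment text, repeated for every library, names only AlCl3, so the titles alone set the groups. Whether the libraries came from separate cultures is not stated, so the spread between them may be technical.

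Library size, recovered from the steps of the FPKM values, ranged from 13583554 to 17608615 reads, of which 13381981 to 17340126 lay in genes whose values came out as whole reads. FPKM, the unit of the deposited table, scales the reads of a gene by its length and by the size of the library. In a gene of 1 kb, 1 read was worth 0.0568 to 0.0736 FPKM, and a floor of 3 reads 0.170 to 0.221 FPKM, which covers counting error only. Correlations between libraries across genes were 0.978 to 0.993 within groups and 0.874 to 0.904 between groups. Of 15 Sertoli markers, 12 had a value and 6 reached a mean of 1 FPKM. Their summed level was 80.6 to 116 FPKM in controls and 60.3 to 62.8 FPKM in AlCl3 libraries, with Inhbb, an inhibin subunit, as the largest contributor, and the part of this shift in the results was not tested. Among defining Sertoli genes, Wt1 and Amh were near 0, and Fshr, Cldn11 and Dmrt1 had no value. Wt1 had a mean of 0.146 FPKM in controls and 0.0163 in AlCl3, and Amh 0.0470 and 0.173. Inha stood at 4.54 and 1.56 FPKM. Dhh stood at 1.90 and 0.160 FPKM, and reached a mean of 1 FPKM through its controls. Sox9 stood at 1.01 and 1.61 FPKM, and Gata4 at 11.6 and 6.34. The extraction text speaks of retinas, but all 6 retina markers with a value stayed under a mean of 1 FPKM, with sums of 0.110 to 0.194 in controls and 0.0997 to 0.261 in AlCl3. Markers of germ cells (2 genes), Leydig cells (3 genes) and macrophages (3 genes) also stayed under 1 FPKM. In bulk RNA, fewer cells of a type and less RNA per cell cannot be told apart.

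All 50 genes had a mean of at least 1 FPKM over the 6 libraries, the limit for testing. Fold changes are on the log2(FPKM + 1) scale, which understates the change of low genes, and "rose" and "fell" mark genes with a Benjamini-Hochberg adjusted p below 0.05 in limma over all 11202 genes tested. By that mark 29 of the 50 genes rose, 5 fell and 16 did not pass. Over all genes tested, 61.3% passed, 31.2% upward and 30.2% downward. In 36 of the 50 genes every AlCl3 library was above every control library, and in 5 every AlCl3 library was below, while 9 overlapped. Over all genes the corresponding shares were 33.7% and 32.4%. The median log2 fold change was 0.61 in the 50 genes and 0.03 over all genes tested. Because these genes were proposed with the contrast known, nothing is read from the difference between those figures.

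**Figure D1:**
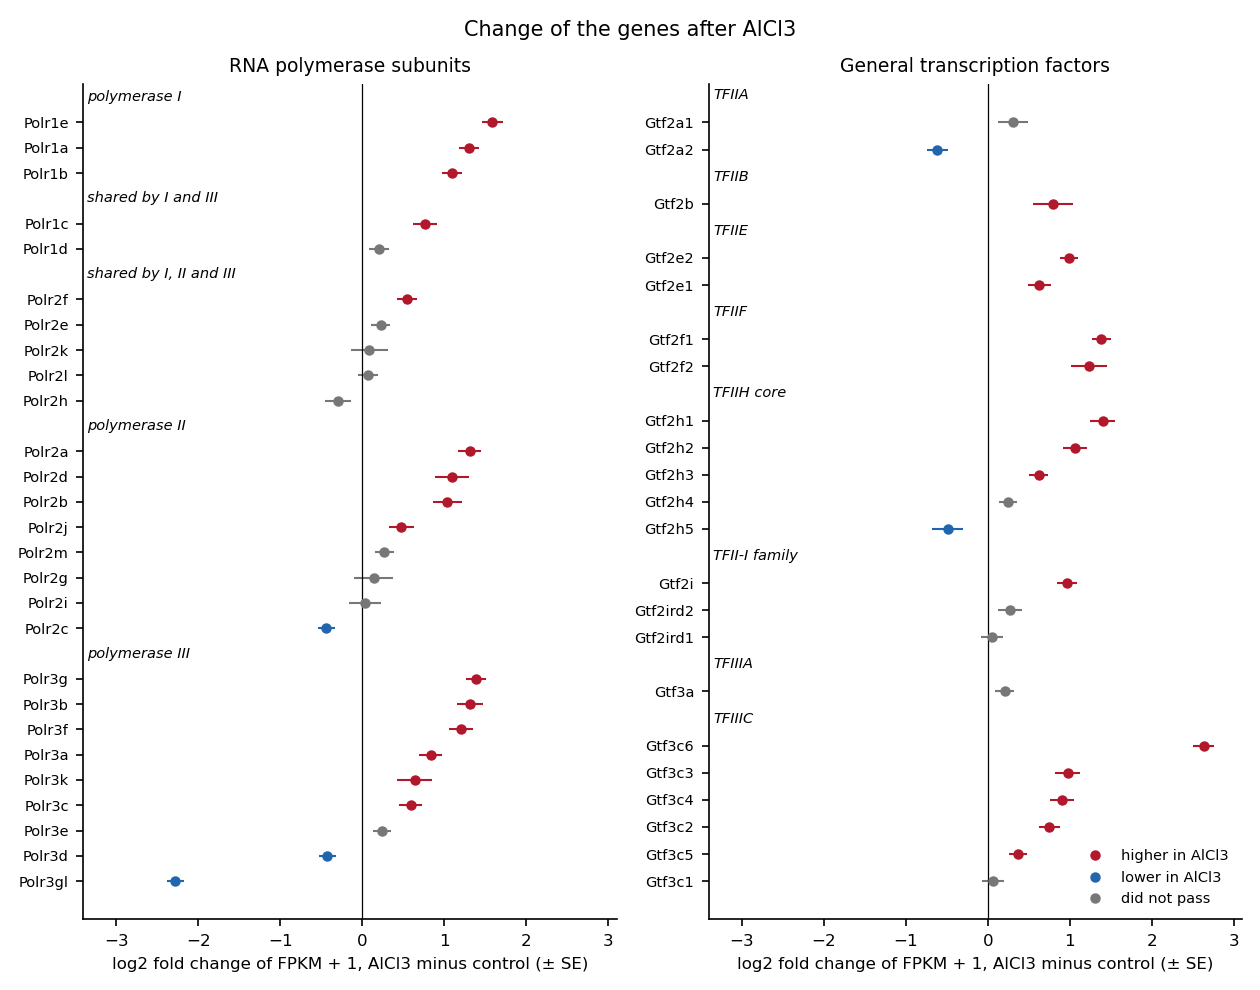
Log2 fold change of FPKM + 1 (AlCl3 minus control, bars ± SE, 3 libraries per group) for 49 of the 50 genes, grouped by complex. The values run from -2.28 for Polr3gl to 2.64 for Gtf3c6, and 29 genes rose while 5 fell.

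The 6 genes of the catalytic large subunits all rose, with log2 fold changes between 0.83 and 1.31, where 31.2% of all genes tested rose. Polr1a, the largest subunit of polymerase I (chromosome 6, 71909053 to 71984935, GRCm38), measured 6.17, 6.99 and 7.17 FPKM in controls and 17.5, 16.5 and 20.6 FPKM in AlCl3 libraries. The lowest AlCl3 library stood well above the highest control, and the group means of 6.78 ± 0.532 and 18.2 ± 2.13 FPKM (SD, n = 3 each) differed 2.69-fold, a log2 fold change of 1.30 (SE 0.12). Polr1b, which forms the active centre with it, measured 5.45, 6.39 and 6.80 FPKM in controls and 13.8, 13.5 and 15.7 FPKM in AlCl3 (log2 fold change 1.09, SE 0.12). These groups did not overlap either.

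Polr2a encodes the largest subunit of polymerase II, whose C-terminal repeats are phosphorylated during the transcription cycle. It measured 11.2, 14.9 and 15.5 FPKM in controls and 32.6, 37.0 and 36.9 FPKM in AlCl3, 2.56-fold apart in the means (log2 fold change 1.31, SE 0.14). Every AlCl3 library was above every control. Polr2b, the second large subunit, measured 11.6, 11.5 and 13.4 FPKM in controls and 26.9, 19.6 and 32.9 FPKM in AlCl3 (log2 fold change 1.03, SE 0.18). The AlCl3 libraries were spread over 6.67 FPKM (SD), with AlCl3 2 the lowest, and still lay above the controls. Polr2b shares 85 exon bases with Igfbp7 on the other strand, which holds 16459 reads against 8973 for Polr2b. The strand setting of the counting is not given in the sources used here.

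Polr3a and Polr3b, the large subunits of polymerase III, had the lowest levels of the 6 in controls. Polr3a measured 2.997, 3.66 and 3.80 FPKM in controls and 6.82, 6.03 and 8.20 FPKM in AlCl3 (log2 fold change 0.83, SE 0.14). Polr3b measured 1.98, 1.81 and 1.92 FPKM in controls and 6.38, 4.76 and 7.81 FPKM in AlCl3 (log2 fold change 1.31, SE 0.16). In neither gene did the groups overlap, and AlCl3 2 was the lowest treated library in both. The ratio of Polr2a to Polr1a levels was 2.03 ± 0.192 in controls and 1.96 ± 0.241 in AlCl3 (SD, n = 3), with overlapping libraries. The ratio of Polr2a to Polr3a was 3.96 ± 0.197 in controls and 5.14 ± 0.876 in AlCl3, where every treated library exceeded the controls. Such a ratio depends on the subunit taken. Group means differed 2.01-fold in Polr3a and 3.31-fold in Polr3b, against 2.56-fold in Polr2a.

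**Figure D2:**
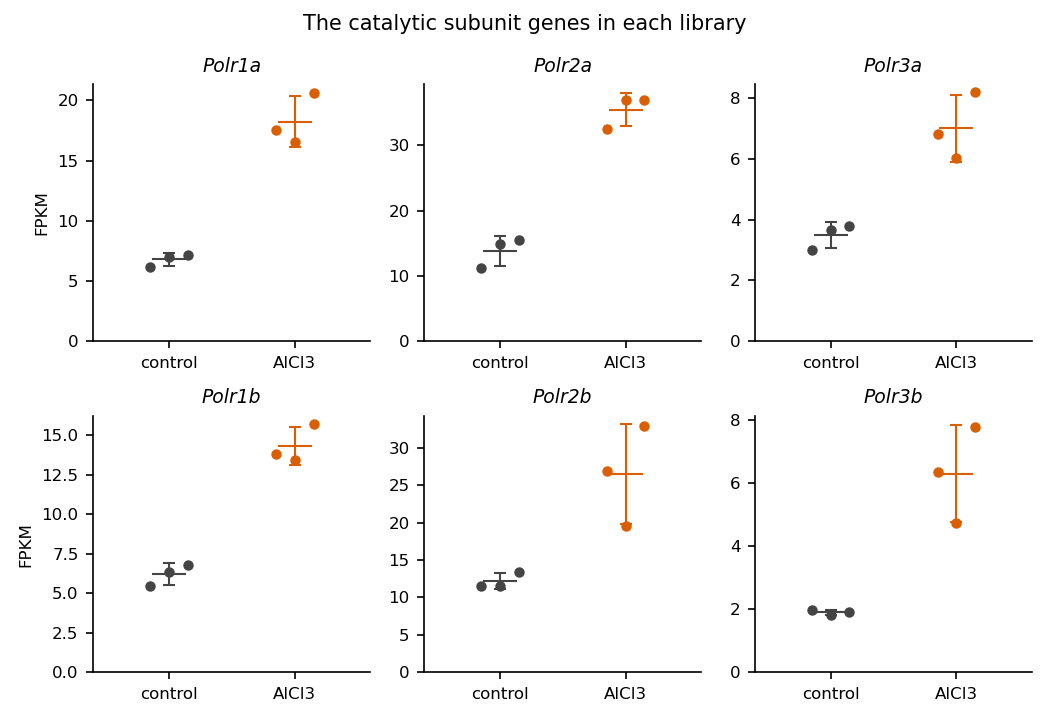
FPKM of the 6 catalytic subunit genes in each library (points) with the group mean and SD, 3 libraries per group. In each panel the AlCl3 libraries lie above the controls, from 6.78 to 18.2 FPKM in the means of Polr1a and from 1.90 to 6.31 in those of Polr3b.

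The remaining gene found for polymerase I alone, Polr1e, encodes a subunit that helps load the enzyme at ribosomal genes. It measured 2.16, 2.04 and 2.60 FPKM in controls and 9.40, 7.71 and 9.34 FPKM in AlCl3, the largest change of the 3 polymerase I genes (log2 fold change 1.59, SE 0.13). Every AlCl3 value was above every control. Polr1c and Polr1d form the assembly platform shared by polymerases I and III. Polr1c rose from 34.9 ± 5.61 to 59.7 ± 6.49 FPKM (40.01, 35.9 and 28.9 in controls, 63.5, 63.5 and 52.3 in AlCl3), while Polr1d measured 58.3 ± 3.39 and 67.2 ± 6.11 FPKM and did not pass. Polr1d has a processed pseudogene, Gm12751, that is identical over 381 bases and holds 3606 reads against 18928 for the gene, so its level is uncertain.

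The 5 small subunits common to polymerases I, II and III had a median log2 fold change of 0.09. Polr2f was the only 1 of them to rise, from 41.0, 37.6 and 34.7 FPKM in controls to 55.5, 61.5 and 50.001 in AlCl3 (log2 fold change 0.55, SE 0.13), or 0.93 with the trends of GC content and length removed. Its groups did not overlap. Polr2e, Polr2h, Polr2k and Polr2l did not pass, with log2 fold changes of 0.23, -0.30, 0.09 and 0.07. With GC and length trends removed, Polr2e (0.69) and Polr2h (-0.41) passed, and Polr2e also passed on the TPM scale (0.35). Polr2k had control values of 83.8, 49.3 and 42.7 FPKM, with control 1 the highest, and without control 1 it passed at 0.37.

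Among the 8 genes of polymerase II alone, 4 rose and 1 fell, against 31.2% and 30.2% of all genes tested. The other 3 did not pass. Polr2d, part of the stalk of the enzyme, measured 61.3, 39.7 and 36.1 FPKM in controls and 98.0, 111 and 81.5 in AlCl3 (log2 fold change 1.09, SE 0.20), with no overlap. Its stalk partner Polr2g measured 158, 106 and 76.9 FPKM in controls and 129, 127 and 105 in AlCl3, overlapping throughout. Polr2j, which forms the assembly platform of polymerase II with Polr2c, rose from 27.0, 19.6 and 18.0 FPKM to 31.4, 29.3 and 29.3. Its log2 fold change of 0.48 (SE 0.15) was 0.83 with GC content and length trends removed, and the call was lost in 4 alternatives, among them without control 2, without control 3 or without AlCl3 1. It shares 176 exon bases with Lrwd1 on the other strand, which holds 6879 reads against 2817 for Polr2j, so its level is uncertain.

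Polr2c was the only gene of the polymerase II class that fell, from 32.1, 30.9 and 30.1 FPKM to 23.3, 21.7 and 22.7 (log2 fold change -0.44, SE 0.10). The groups did not overlap. Its value is uncertain, because 953 exon bases overlap Dok4 on the other strand and because processed pseudogenes hold 3687 (Gm11993) and 682 (AC133968.1) reads against 14053 for the gene. The call was also lost when libraries were rescaled to TPM and with GC and length trends removed (log2 fold change -0.27). Polr2i and Polr2m did not pass, though Polr2i passed at 0.47 with GC and length trends removed and Polr2m at 0.39 on the TPM scale. Polr2i, a subunit with a role in start site choice and proofreading, stood at 28.1 ± 8.15 and 28.3 ± 4.63 FPKM. Its level is uncertain, because it shares 325 exon bases with Tbcb on the other strand, which holds 7617 reads against 3375. Polr2m, a protein that associates with polymerase II, stood at 78.9 ± 6.10 and 95.1 ± 3.27 FPKM.

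Polymerase III held the widest range among the polymerase classes, with 6 of its 10 genes higher, 2 lower and log2 fold changes from -2.28 to 1.38. The shares over all genes tested were 31.2% higher and 30.2% lower. Polr3c, Polr3f and Polr3g or Polr3gl form the subcomplex that contacts the initiation factor TFIIIB. Polr3f measured 2.07, 2.23 and 2.59 FPKM in controls and 6.42, 5.45 and 8.08 in AlCl3, a log2 fold change of 1.20 (SE 0.15). Polr3c rose from 10.9 ± 1.81 to 16.7 ± 1.21 FPKM, by 0.59 on the log2 scale. In both genes the groups did not overlap.

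Polr3g and Polr3gl are paralogs that take the same place in this subcomplex. Polr3g is known from undifferentiated and transformed cells, and Polr3gl is the more widely expressed form. Polr3g (chromosome 13, 81673843 to 81711013, minus strand) measured 1.09, 0.737 and 1.04 FPKM in controls, from 71, 49 and 71 reads, and 3.87, 4.21 and 4.16 FPKM in AlCl3, from 268, 225 and 281 reads. Its means differed 4.28-fold with no overlap, and the log2 fold change was 1.38 (SE 0.12), or 2.104 on the log2 scale of voom, which has no pseudocount of 1 FPKM. Its control mean of 0.954 FPKM is under the testing limit, which it passed through the AlCl3 libraries.

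Polr3gl (chromosome 3, 96577872 to 96594181, minus strand) moved the other way. It measured 31.6, 30.7 and 30.5 FPKM in controls, from 839, 828 and 847 reads, and 5.55, 5.44 and 5.76 FPKM in AlCl3, from 156, 118 and 158 reads. The AlCl3 mean was 5.54-fold lower (log2 fold change -2.28, SE 0.10), rank 70 from the lowest of all genes tested. The sum of the paralogs was 31.9 ± 0.723 FPKM in controls and 9.66 ± 0.255 in AlCl3 (SD, n = 3). The share of Polr3g in that sum was 3.32, 2.35 and 3.29% in controls and 41.1, 43.6 and 41.9% in AlCl3. The sum divided by the level of Polr3a was 9.27 ± 1.44 in controls and 1.40 ± 0.196 in AlCl3. FPKM is per length, so these shares compare transcript levels and not protein.

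**Figure D3:**
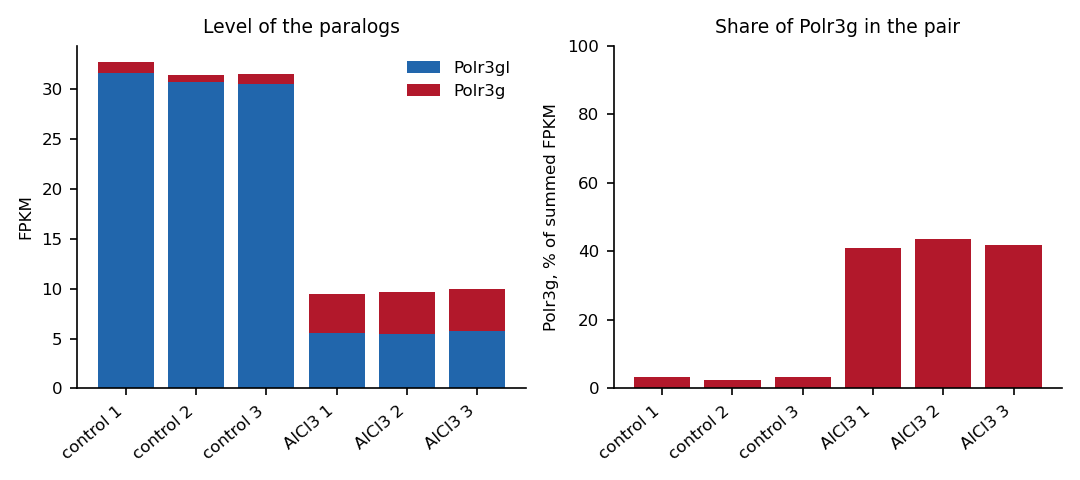
Left, FPKM of Polr3gl and Polr3g stacked for each library. Right, the percentage of the summed FPKM that is Polr3g, which lies between 2.35 and 3.32% in controls and between 41.1 and 43.6% in AlCl3 libraries.

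The remaining polymerase III genes, Polr3a and Polr3b apart, changed less than Polr3f, Polr3g and Polr3gl. Polr3k, a subunit needed for termination, measured 23.2, 15.4 and 11.7 FPKM in controls and 28.0, 26.2 and 23.1 in AlCl3. Its log2 fold change of 0.64 (SE 0.21) passed although AlCl3 3 lay below control 1. The call was lost in 6 alternatives, and the change was 0.27 with GC and length trends removed and 0.42 without control 3. Polr3d, which pairs with Polr3e in a TFIIF-like module, fell from 19.3, 18.5 and 19.8 FPKM to 13.6, 14.4 and 13.9 (log2 fold change -0.43, SE 0.10), with no overlap. The call was lost on the TPM scale, and the change was -0.22 with GC and length trends removed. Polr3e, at 5.69 ± 0.0488 and 6.94 ± 0.461 FPKM, did not pass, but passed at 0.21 with GC and length trends removed.

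The polymerase subunit genes were also split by length, at a limit of 2000 summed exon bases set after the values had been seen. Of the 8 subunit genes under it, 2 rose and 1 fell, with a median log2 fold change of 0.08 and a median coefficient of variation of 25.6% among controls. Polr3gl is among these 8, with the largest change of all 28 subunit genes (-2.28) and a coefficient of variation of 1.99%. Of the other 20, 13 rose and 2 fell, with a median of 0.70 and a coefficient of variation of 8.54%. Over all genes tested 31.2% rose and 30.2% fell, and these shares were not computed for all genes under 2000 bases. Across the 28 subunit genes, Spearman's rho between log2 fold change and length was 0.539, as a description over genes that share the same 6 libraries. The same rho was 0.0583 over 11183 genes. Against GC content, rho was -0.351 in the subunit genes and -0.352 over the 11183 genes. Control 1 was the highest control in all 8 short subunit genes, and also in 54.2% of all 2409 genes tested under 2000 bases, against 27.0% of all genes tested. The part of control 1, of length and of GC content in these values was not tested.

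**Figure D4:**
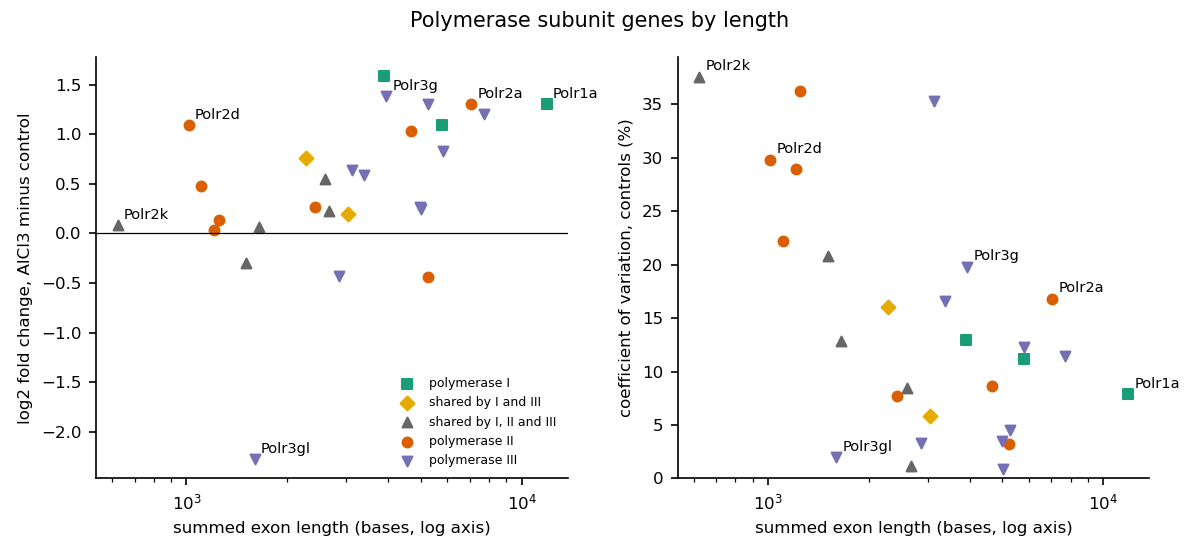
Log2 fold change (left) and coefficient of variation among controls in percent (right) of the 28 polymerase subunit genes against summed exon length in bases on a log axis. The 8 genes under 2000 bases have a median change of 0.08 and the other 20 a median of 0.70.

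Of the 12 genes of TFIIA, TFIIB, TFIIE, TFIIF and core TFIIH, 8 rose and 2 fell, against 31.2% and 30.2% of all genes tested. The other 2 did not pass. Gtf2f1 and Gtf2f2 encode TFIIF, which escorts polymerase II to the promoter. Gtf2f1 measured 34.1, 32.7 and 38.4 FPKM in controls and 85.7, 95.2 and 99.1 in AlCl3 (log2 fold change 1.39, SE 0.12). Gtf2f2 measured 28.3, 20.0 and 13.6 FPKM in controls and 51.9, 48.1 and 44.2 in AlCl3 (log2 fold change 1.24, SE 0.22). In both genes the groups were apart, and the controls of Gtf2f2 were spread more widely than those of Gtf2f1.

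Gtf2e1 and Gtf2e2 encode TFIIE, which recruits TFIIH. Gtf2e2 rose from 11.8, 11.5 and 12.6 FPKM to 23.6, 25.1 and 25.7 (log2 fold change 0.99, SE 0.11). Gtf2e1 rose from 3.11, 2.79 and 3.23 FPKM to 5.85, 4.19 and 5.86 (log2 fold change 0.63, SE 0.14), or 0.27 with GC and length trends removed. Neither gene's groups overlapped. Gtf2b, the factor that bridges promoter-bound TBP and the polymerase, measured 14.2, 9.47 and 5.94 FPKM in controls and 18.0, 16.8 and 15.97 in AlCl3. Its groups did not overlap, but the controls were widely spread. The log2 fold change of 0.79 (SE 0.24) was 0.51 without control 3 and 0.41, no longer past the threshold, with GC and length trends removed. The call was also lost with no filter on low values.

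TFIIH opens the promoter DNA and also acts in nucleotide excision repair. Of its 5 core genes found by symbol, Gtf2h1, Gtf2h2 and Gtf2h3 rose. Gtf2h1 measured 7.19, 7.34 and 9.82 FPKM in controls and 24.0, 19.3 and 25.7 in AlCl3 (log2 fold change 1.40, SE 0.15). Gtf2h2 measured 4.69, 3.32 and 3.17 FPKM in controls and 9.11, 8.13 and 9.21 in AlCl3, a log2 fold change of 1.07, or 0.66 with GC and length trends removed. Every AlCl3 library was above the controls in these genes. Gtf2h3 rose from 6.13, 4.99 and 5.07 FPKM to 8.92, 8.90 and 8.67, again with no overlap.

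Gtf2h5, the smallest TFIIH subunit, went the other way, from 57.1, 42.7 and 33.3 FPKM in controls to 32.7, 32.5 and 27.0 in AlCl3 (log2 fold change -0.49, SE 0.19). Control 3 and AlCl3 1 differed by little. The call was lost in 8 alternatives, the change was -0.29 without control 1, and it was -0.88 with GC and length trends removed. Gtf2h4 did not pass, at 7.92 ± 0.466 and 9.60 ± 0.809 FPKM, but passed at 0.59 with those trends removed.

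Gtf2a2, the small subunit of TFIIA, fell from 26.5, 20.8 and 23.9 FPKM to 15.9, 15.2 and 14.2, with no overlap (log2 fold change -0.61, SE 0.12, or -1.01 with GC and length trends removed). Gtf2a1, which encodes the large TFIIA precursor, measured 2.73, 3.38 and 3.65 FPKM in controls and 4.23, 3.15 and 5.67 in AlCl3 and did not pass, except without AlCl3 2 (0.48). Within TFIIA the genes thus had log2 fold changes of -0.61 and 0.31. Of the TFII-I family, Gtf2i, a multifunctional DNA-binding factor despite its name, rose from 6.72, 8.53 and 8.56 FPKM to 15.4, 16.5 and 17.3 (log2 fold change 0.97, SE 0.13). Its relatives Gtf2ird1 and Gtf2ird2 did not pass, with log2 fold changes of 0.06 and 0.28, but passed at 0.38 and 0.51 with GC and length trends removed.

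TFIIIC binds the internal promoter boxes of transfer RNA genes, and 5 of its 6 genes rose, against 31.2% of all genes tested. Gtf3c6 (chromosome 10, 40247703 to 40258108, minus strand), its smallest subunit, measured 3.57, 2.60 and 2.75 FPKM in controls and 25.1, 22.9 and 22.8 in AlCl3. No value of one group came near the other. Its means of 2.98 ± 0.522 and 23.6 ± 1.32 FPKM differed 7.93-fold, the largest change of the 50 genes and rank 15 from the highest of all genes tested (log2 fold change 2.64, SE 0.13).

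Gtf3c2, Gtf3c3, Gtf3c4 and Gtf3c5 rose by 0.37 to 0.98 on the log2 scale. Gtf3c3 measured 2.46, 2.61 and 3.17 FPKM in controls and 7.32, 5.08 and 6.83 in AlCl3, a log2 fold change of 0.98 (SE 0.15), or 0.56 with GC and length trends removed. Gtf3c4 measured 4.54, 6.21 and 6.29 FPKM in controls and 12.1, 9.78 and 12.5 in AlCl3 (0.91, SE 0.15), and Gtf3c2 rose from 2.84 ± 0.386 to 5.46 ± 0.568 FPKM. The groups were apart in each. Gtf3c2 shares 2556 of its 6564 exon bases with Gm29609 on the same strand, which holds 14 reads against 2695, so the level of Gtf3c2 is uncertain. Gtf3c5 rose from 5.88 ± 0.219 to 7.89 ± 0.451 FPKM, a call lost without control 2 or without AlCl3 3. Gtf3c1, the largest subunit and a contact of the B box, stood at 7.75 ± 1.15 and 8.09 ± 0.737 FPKM and did not pass, but passed with a change of 0.32 with GC and length trends removed. Gtf3a, or TFIIIA, which is specific to 5S ribosomal RNA genes, stood at 2.08 ± 0.212 and 2.55 ± 0.133 FPKM and did not pass either, but likewise passed at 0.58 with those trends removed. Its 584 reads are uncertain, because Mtif3, with 1148 reads, overlaps 1505 of its exon bases on the other strand.

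The 200 bases before a RefSeq start of Polr3g, Polr3gl and Gtf3c6 are shown because these genes carried the largest changes of the polymerase III machinery. Sequences are from RefSeq on GRCm38.p6, printed 5′ to 3′ on the gene's strand, minus in each case, with the E-box letters CACGTG in capitals. Their positions are chr13:81711014-81711213 for Polr3g, chr3:96594182-96594381 for Polr3gl and chr10:40257713-40257912 for Gtf3c6, before the more upstream of its 2 RefSeq starts. The GENCODE gene reaches further upstream, to 40258108, so the Gtf3c6 stretch lies within its span.
Polr3g: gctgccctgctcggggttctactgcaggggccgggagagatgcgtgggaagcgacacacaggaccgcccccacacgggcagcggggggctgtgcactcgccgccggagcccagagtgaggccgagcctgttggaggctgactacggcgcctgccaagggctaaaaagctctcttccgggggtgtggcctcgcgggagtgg
Polr3gl: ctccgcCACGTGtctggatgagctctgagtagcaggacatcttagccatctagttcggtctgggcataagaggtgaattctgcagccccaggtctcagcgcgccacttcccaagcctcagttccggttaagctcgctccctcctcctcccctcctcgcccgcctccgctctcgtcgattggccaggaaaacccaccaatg
Gtf3c6: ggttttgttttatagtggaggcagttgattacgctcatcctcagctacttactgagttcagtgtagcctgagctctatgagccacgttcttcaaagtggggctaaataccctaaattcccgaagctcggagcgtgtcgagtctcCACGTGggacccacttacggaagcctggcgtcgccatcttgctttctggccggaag

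The palindrome CACGTG, the E-box bound by factors such as MYC and USF, began 194 bases before the Polr3gl start and 56 bases before that Gtf3c6 start, and was not in the window of Polr3g. Windows of 300 bases, 250 before and 50 after a start, were searched on both strands for 43 of the 50 genes, and 7 had none in the table. The E-box was in 12 of their 48 windows (25.0%), in 5 of the 27 windows of genes that rose (18.5%), in 10.4% of windows of genes tested and in 7.15% of all 32851 promoters. The ETS core CCGGAAG, read on the other strand as CTTCCGG, was in 17 of the 48 windows (35.4%) and in 11 of the 27 windows of genes that rose (40.7%). This core was in 19.0% of windows of genes tested and in 8.86% of all promoters. It began 29 bases before the Polr3g start and 7 bases before that of Gtf3c6. The TATA letters TATAAA were in 5 windows (10.4%), in 6.69% of windows of genes tested and in 13.6% of all promoters. The NRF1 core GCATGCGC was in 4 windows (8.33%), in 5.64% of windows of genes tested and in 2.71% of all promoters. CCAAT was less frequent here, in 13 windows (27.1%), against 38.1% of windows of genes tested and 37.4% of all promoters. CCAAT matches began 24 and 6 bases before the Polr3gl start. The counts are of windows, and windows of the same gene can overlap. The E-boxes of Gtf3c6 and Gtf2h5 and the ETS core of Gtf3c6 were each counted in both overlapping windows of the gene. A match is a description of letters and not of a bound site.

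Neighbouring genes of Polr3gl, chosen after their values were seen, also changed, where 61.3% of all genes tested passed the threshold. Txnip, an inhibitor of thioredoxin (chromosome 3, 96557957 to 96561883, plus strand), fell from 638 to 22.5 FPKM (log2 fold change -4.77, SE 0.13). Ankrd34a (-0.92, SE 0.16) and Lix1l (-0.63, SE 0.11) on the other flank also fell, while Rbm8a, an exon junction complex gene, rose by 0.63 (SE 0.14). Gm16253 fell by 0.54 on the log2 scale, having reached the testing limit through the controls (1.46 and 0.704 FPKM), and shares 57 exon bases with Polr3gl on the other strand, with 60 reads against 2946. Around Gtf3c6, Rpf2, a ribosome assembly factor, rose by 1.32 (SE 0.22), and Amd1, an enzyme of polyamine synthesis, rose by 1.39 (SE 0.18). Cdk19, also near Gtf3c6, rose by 0.41 (SE 0.14). Around Polr3g, Lysmd3 stood at 7.56 and 7.18 FPKM and did not pass, while Arrdc3 rose by 0.77 and Cetn3, a centrin gene, by 0.79.

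**Figure D5:**
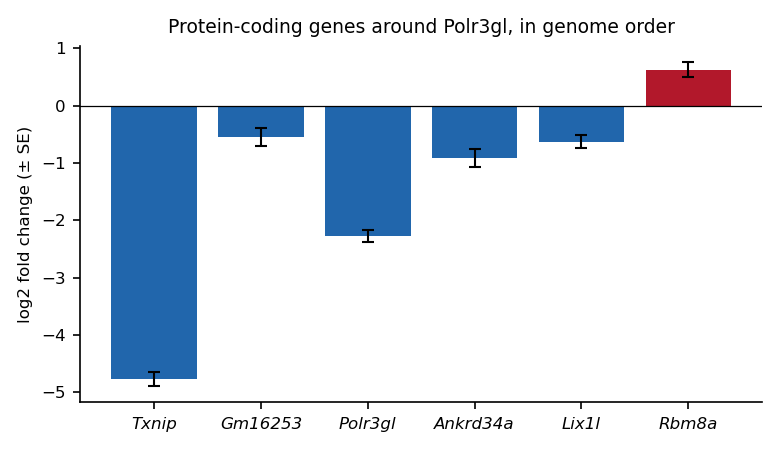
Log2 fold change (AlCl3 minus control, bars ± SE) of Polr3gl and its neighbouring genes in chromosome order. Values run from -4.77 for Txnip through -2.28 for Polr3gl to 0.63 for Rbm8a.

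Further genes of the transcription machinery came from a list of 69, of which 66 were tested. Of these, 25 rose (37.9%), 7 fell (10.6%) and 34 did not pass, with a median log2 fold change of 0.26. Over all genes tested 31.2% rose and 30.2% fell, and the list was not tested against them or against the 50 genes. Of the 10 polymerase I genes, which include subunits under older symbols, 7 rose and none of the others fell past the threshold. Ubtf, which coats active ribosomal genes, rose from 10.2 ± 0.957 to 36.4 ± 1.78 FPKM (3.56-fold, log2 fold change 1.74, SE 0.11). Cd3eap, a polymerase I subunit, rose by 1.19, Rrn3, which licenses the enzyme for initiation, rose by 1.03, and Taf1b of the promoter selectivity factor rose by 0.87.

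Of 41 polymerase II genes tested, 13 rose and 4 fell, against 31.2% and 30.2% of all genes tested, while 24 did not pass. Gpn1 and Gpn3, GTPases that help assemble and import polymerase II, rose by 1.08 and 0.79, and the TFIID subunit genes Taf11 and Taf5 rose by 0.80 and 0.74. The 4 that fell, named here although the naming rule did not choose them, were the TFIID subunit genes Taf10 (-0.60) and Taf3 (-0.59), the elongation kinase gene Cdk9 (-0.39) and the pausing factor gene Nelfb (-0.34). Of 10 polymerase III genes, 2 rose, 2 fell and 6 did not pass. Maf1, the repressor of polymerase III, measured 54.2, 56.2 and 60.0 FPKM in controls and 23.8, 29.0 and 22.5 in AlCl3, with no overlap, and its log2 fold change was -1.16 (SE 0.13). Crcp, a polymerase III subunit under an older symbol, measured 24.5, 14.8 and 17.6 FPKM in controls and 46.9, 41.1 and 43.8 in AlCl3 (log2 fold change 1.20). Snapc1 of the small nuclear RNA activating complex rose by 0.57, having reached the testing limit through its AlCl3 libraries (0.818 and 1.71 FPKM), and Snapc2 fell by 0.48 on the log2 scale.

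Mitochondria have a polymerase of their own, and its 5 listed genes went in different directions. Polrmt, the enzyme itself, fell from 12.0 ± 2.05 to 6.41 ± 0.970 FPKM (log2 fold change -0.80). The initiation factor Tfb2m rose from 3.77 to 9.42 FPKM (1.13), Tfam, which packages mitochondrial DNA, rose from 11.3 to 16.9 FPKM (0.54), and the elongation factor Tefm rose from 6.07 to 10.3 FPKM (0.74) with overlapping groups.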

How the data were processed

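RNA-seq libraries of TM4 cells, 3 control and 3 AlCl3, were grouped by sample title. The authors deposited FPKM values with 1 column per library, as the name and values of the table show. The submitters' processing notes name HISAT2 2.1.0 as a tool and GRCm38 as the build, and the counter, annotation and strand setting were not given in the sources used. Of 24354 identifiers, 24300 were in GENCODE mouse release M21, which gave symbols, positions and summed exon lengths. The FPKM steps gave whole reads, within 0.01 reads, for 98.9% of genes and for all 50 genes described.

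Genes with a mean of at least 1 FPKM entered a limma 3.58.1 fit of log2(FPKM + 1) in R 4.3.3, trended variance, without covariates, two-sided, with Benjamini-Hochberg adjustment and a threshold of 0.05. The fit was also run on simulated data in which few genes changed, unlike these data, and nothing is concluded from that run. Gene copies were sought with blastn 2.17.0 (at least 95% identity over 200 bases). Values are mean ± SD of 3 libraries. Each p-value sets the group difference against the spread between libraries only, with variances moderated over all genes tested.

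Values of 1 of the 50 genes are not reported here, although it is in the counts. The members, classes and lists were chosen with earlier results of these data known. Library values were given for the catalytic subunits and, in each class, for up to 4 genes past the threshold with the largest change, and related genes were named by smallest p, up to 4 per heading. Library values of other genes, neighbours and the 2000-base limit were chosen after seeing values. Alternatives were a pseudocount of 0.1, no filter, a mean of 5 FPKM, TPM and median-ratio scaling, removal of GC and length trends, a replicate block, voom on recovered reads and leaving out each library.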

Additional observations from a re-analysis of the deposited data

How the results depend on the processing

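Of the 34 called genes, 27 kept call and direction under all 14 alternatives that gave them a value. The other 7 (Gtf2b, Gtf2h5, Polr3k, Polr2j, Gtf3c5, Polr2c and Polr3d) lost the call under at least 1, and none reversed. On the TPM scale 32 genes rose and 2 fell, against 29 and 5. The median of all genes moved from 0.03 to 0.14 there on the log2 scale. Over all genes tested, 3741 rose and 2702 fell on that scale, against 3490 and 3379. The cause was not tested. Removing GC and length trends gave 36 and 5, with 3758 and 3777 over all genes tested. A mean of at least 5 FPKM, with 41 of the 50 genes tested, gave 23 and 5. Over all 7168 genes tested at that mean, 2416 rose and 2260 fell. Leaving out each library in turn gave 26 to 30 rises and 4 to 5 falls, with 5805 to 7067 calls over all genes against 6869. The replicate block gave 29 rises, 6 falls (with Polr2h added) and 7375 calls over all genes. Same-numbered libraries deviated together with correlations of 0.202, 0.0968 and 0.385, each the highest for its control library. AlCl3 2, however, correlated better with control 1 (0.168). Whether same-numbered libraries are pairs is not stated and these values cannot decide it, so the main fit had no block. Depth limits Polr3g most, with 49 reads in its lowest library.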

Other observations

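Of the 50 genes, 12 have a tested neighbour on the other strand whose start lies within 1000 bases upstream, and 4 of these neighbours rose, 3 fell and 5 did not pass. Over all genes tested 31.2% rose and 30.2% fell. Ptcd3, a mitochondrial ribosome protein gene 303 bases from Polr1a, rose from 4.63 to 26.2 FPKM (log2 fold change 2.27). Eif2b1, a translation initiation factor gene 9 bases from Gtf2h3, rose from 10.9 to 31.1 FPKM (1.43). Yipf3, a Golgi protein gene 26 bases from Polr1c, fell from 41.8 to 18.8 FPKM (-1.11), opposite to Polr1c. These neighbours were chosen after their values were seen, and no test of the pairs was run.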
